A study of Homo sapiens with 5 samples.

Results

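The long arm of chromosome 7 from 64 Mb to its end (hg19) held 1633 of the 23350 methylated peaks called across 5 K562 cultures. K562 is an established human cell line from a chronic myeloid leukaemia. The members were chosen by position alone: every peak on chromosome 7 that starts at or beyond 64 Mb. The peaks themselves, and 2 windows of 1 Mb singled out among the dense ones (64 to 65 Mb, and 107000001 to 108000000), were selected on the deposited lists, so their number and density are given as a description. Merging across libraries wherever peaks shared 1 bp or more gave 803 regions of 11260 in the genome (7.13%). The first region started at 64013982 and the last ended at 158937666. Just inside the limit lay a region of wild-type bulk alone (64013982 to 64015089, score 106). Just outside it lay a region of both wild-type cultures (63955016 to 63956265, scores 101 and 105).

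Methylated DNA was pulled down with immunoprecipitation and sequenced (MeDIP-seq), and the peaks mark stretches where methylated fragments piled up. The labels give 2 wild-type cultures, WT bulk and WT transfected, and 3 DNMT3A-mutated lines, MT1, MT2 and MT4. All 5 were K562 cells in the same medium with serum and antibiotics. The study's title names CRISPR/Cas9 gene editing as the source of the mutations. The protocol calls the lines clones, but no label gives the alleles, the number of edited copies or whether the lines arose separately. The wild-type cultures are controls of different kinds. P-values therefore measure only the spread between these libraries.

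DNMT3A is one of the enzymes that add methyl groups to cytosines with no methyl group on the opposite strand, and it is often mutated in acute myeloid leukaemia. MeDIP favours stretches that are both methylated and rich in CpG sites. Methylated CpG islands, gene bodies, imprinted promoters and repeats can therefore appear in such lists, and the make-up of the present lists was not analysed. The long arm of chromosome 7 carries clusters of KRAB zinc finger genes, which encode repressors that bind DNA, and the imprinted genes MEST and PEG10. It also carries duplicated blocks of near-identical sequence, and loss of the arm is a recurrent event in myeloid leukaemia. No annotation in hg19 was used here, so every gene below is named as background from its known place on the arm, and overlap of a peak with an exon or promoter was not analysed.

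MT4 had 648 peaks on the arm, WT bulk 420, WT transfected 270, MT1 191 and MT2 104. This is the order of the full lists, which ran from 8399 peaks in MT4 down to 1426 in MT2. As a share of each library's own peaks, the arm held 6.76% in WT bulk and 6.04% in WT transfected, and 6.72%, 7.29% and 7.72% in MT1, MT2 and MT4. The mutated lines averaged 7.24 ± 0.50% (SD, n = 3) and the wild-type cultures 6.40 ± 0.51% (SD, n = 2). The difference of 0.84 percentage points was not separated from the spread between libraries (exact permutation test, two-sided, p = 0.4). MT1 lay just below WT bulk, so the groups overlapped. With 2 against 3 libraries no such test can give a p below 0.2. With each list cut to its best-scoring 1426 peaks the shares were 8.06% in WT bulk and 7.85% in WT transfected, and 7.71%, 7.29% and 9.26% in MT1, MT2 and MT4, and the difference shrank to 0.13 percentage points. It was 0.45 points at or above the median score of all peaks and 0.48 points without WT transfected.

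Peaks on the arm were somewhat wider at the median than those of other chromosomes in every library, a description with no test. The median width was 1316.5 bp on the arm and 1255 bp on other chromosomes in WT bulk, 1299 and 1180 bp in WT transfected, 1502 and 1330.5 bp in MT1, 1961.5 and 1771.5 bp in MT2, and 1092.5 and 1084.5 bp in MT4. The mean of the mutated lines was 1519 ± 435 bp (SD, n = 3) against 1308 ± 12.4 bp (SD, n = 2) in wild-type cultures (exact permutation p = 0.8). That difference of 211 bp rested on MT2 and became -10.5 bp without it. Peaks covered 648 kb of the arm in WT bulk, 405 kb in WT transfected, and 324, 221 and 866 kb in MT1, MT2 and MT4 (exact permutation p = 1.0).

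The caller's score, as deposited by the authors, was turned into a percentile within each library's whole list, because list lengths differ. The median percentile of the arm's peaks was 49.4 in WT bulk and 58.6 in WT transfected, and 56.2, 46.8 and 50.8 in MT1, MT2 and MT4. Values near 50 place the typical peak of the arm in the middle of its list, and the genotypes overlapped (exact permutation p = 0.6). The arm's best rank within a list was 36 in WT bulk and 41 in WT transfected, and 30, 36 and 34 in MT1, MT2 and MT4, and between 4 and 13 peaks per library were in the top 100.

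Along the arm the regions were uneven. Of 95 windows of 1 Mb, 90 held a region. The 5 empty ones began at 78, 83, 85, 109 and 147 Mb. The longest stretch without a peak in any library ran for 2.34 Mb from 82073293 to 84409265, the next for 2.30 Mb from 108397089 to 110695104, and the next for 1.70 Mb from 77670233 to 79368453. Neighbouring regions were 43.9 kb apart at the median, against 88.9 kb on other chromosomes, and 13.8% of the gaps were under 10 kb, against 9.01%. The arm was thus more densely occupied than the average of the other chromosomes, with most of its regions beyond 100 Mb.

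**Figure D1:**
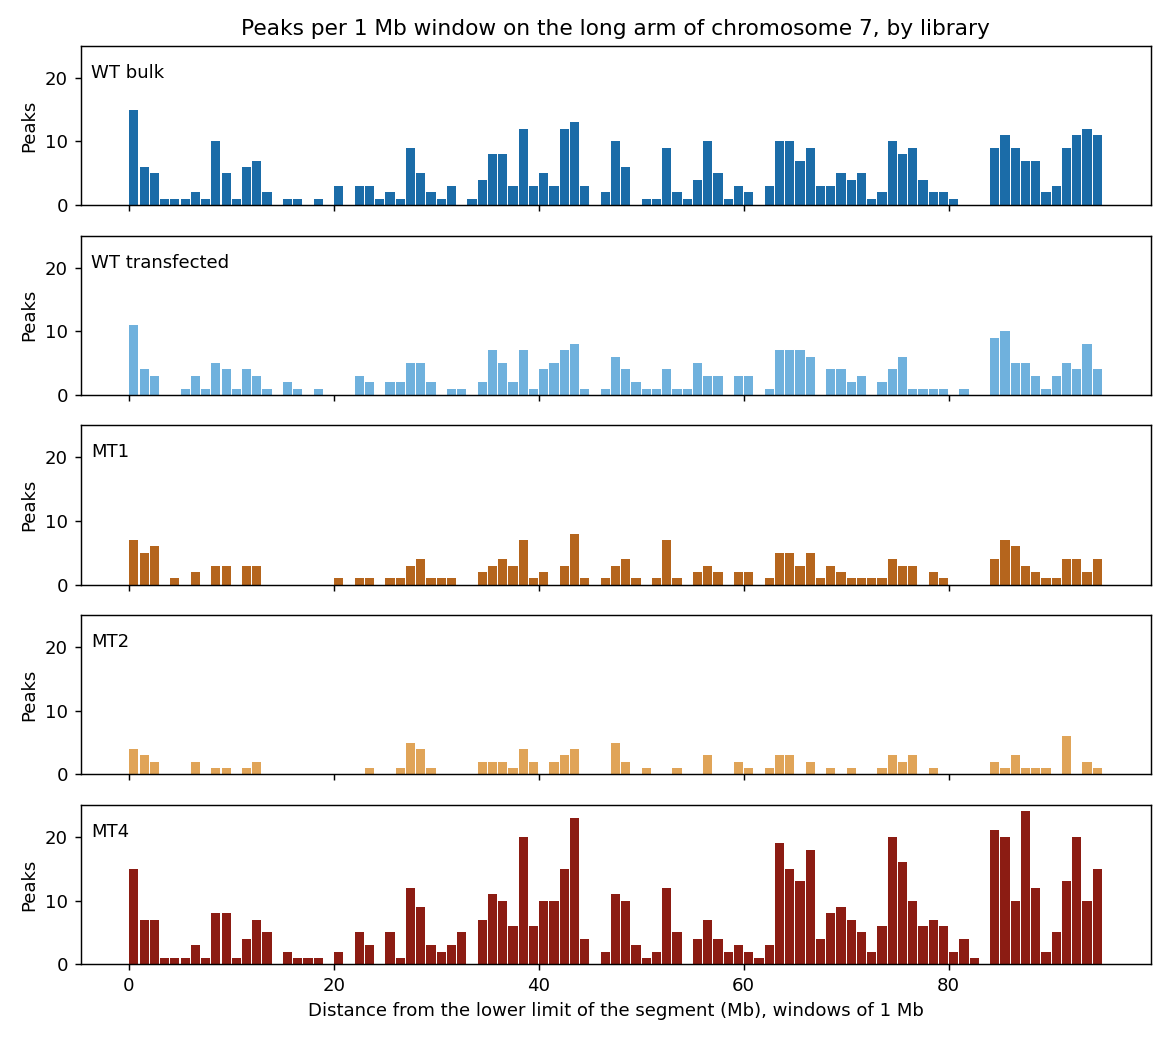
Peaks per window of 1 Mb in each library, against the distance of the window from the 64 Mb limit; bars are numbers of peaks on the same vertical scale. The 5 empty windows are empty in every library, MT4 reaches 24 peaks in a window, and MT2 never exceeds 6.

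The 10 densest windows held 228 of the 803 regions (28.4%) in 10.5% of the windows. They held a like share of each library's peaks on the arm, from 24.6% in MT1 to 28.9% in MT4. The window at 151 to 152 Mb had 25 regions, and those starting at 102, 148 and 156 Mb and at 107000001 had 24 each. The windows at 138, 127, 106, 157 and 64 Mb followed with 23, 22, 21, 21 and 20 regions. The median window with a peak had 7 regions on the arm and 4 in the genome. What filled these windows differed. In the window at 151 Mb, 16 of 25 regions were held by MT4 alone and none by all 5 libraries. In that at 64 Mb only 4 of 20 were held by MT4 alone and 7 were in at least 4 libraries.

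The window from 64 to 65 Mb lies in a part of the arm known for a cluster of KRAB zinc finger genes, among them ZNF107, ZNF138, ZNF273, ZNF117 and ZNF92. It held 15 peaks in WT bulk and 11 in WT transfected, and 7, 4 and 15 in MT1, MT2 and MT4. These are 0.241%, 0.246%, 0.246%, 0.281% and 0.179% of the lists. MT4 was the lowest and MT2 the highest, both mutated, and the group means were 0.235 ± 0.052% (SD, n = 3) and 0.244 ± 0.003% (SD, n = 2; exact permutation p = 1.0). Without MT4 the difference of -0.009 percentage points became 0.020.

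Peaks of this window were alike in width, with quartiles of 1106 and 1529 bp, and 17.3% were narrower than 1 kb against 31.7% on the whole arm. Their median score percentile was 70.0. The region from 64029361 to 64031090 was held by all 5 libraries, with scores of 195 in WT bulk and 199 in WT transfected, and 140, 162 and 213 in MT1, MT2 and MT4. The region from 64493101 to 64494548 was also held by all 5 and scored 248 in WT bulk and 122 in WT transfected, and 170, 136 and 160 in MT1, MT2 and MT4. The region from 64177540 to 64179046 scored 192, 147, 195, 91.2 and 250 in the same order, so that MT2 reached it only just above the limit of 90. Regions starting at 64198752, 64348127, 64406920 and 64698912 were held by every library except MT2. The window also held the highest-ranked region of both wild-type cultures and no mutated line on the arm, from 64717674 to 64718798, with scores of 170 in WT bulk and 168 in WT transfected. Its percentiles were 77.5 and 79.8.

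**Figure D2:**
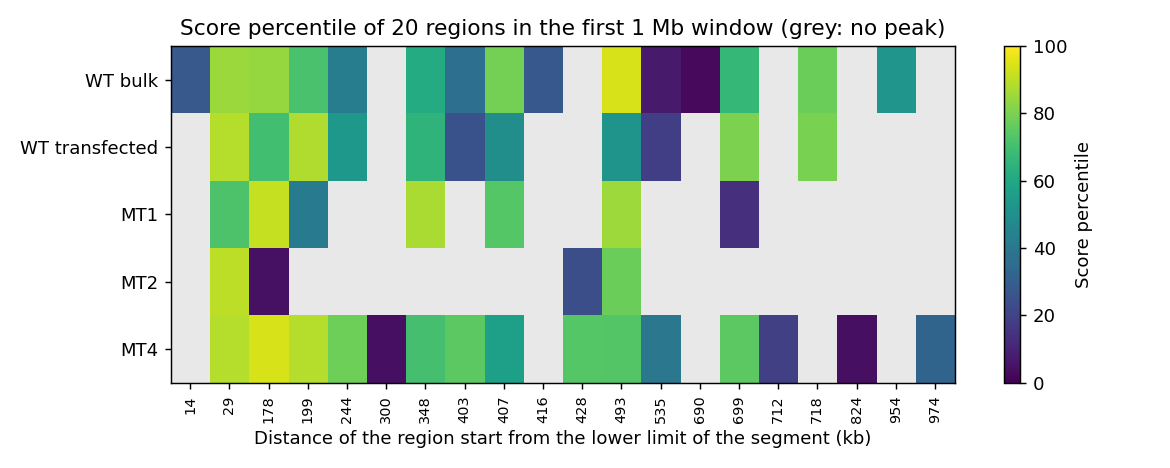
Score percentile, within each library's list, of the 20 regions of the window from 64 to 65 Mb, ordered by their distance in kb from the 64 Mb limit; grey marks a library without a peak. MT2 holds 4 of the regions, WT bulk and MT4 hold 15 each, and 3 columns are filled in all 5 rows.

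The window from 107000001 to 108000000 is known to hold SLC26A4, the anion exchanger gene mutated in Pendred syndrome, LAMB1, which encodes a laminin chain, and part of NRCAM, which encodes an adhesion molecule of neurons. It held 13 peaks in WT bulk and 8 in WT transfected, and 8, 4 and 23 in MT1, MT2 and MT4. The shares were 0.209% and 0.179% in the wild-type cultures and 0.281%, 0.281% and 0.274% in MT1, MT2 and MT4. The window was chosen for this separation, so it is a description and was given no test. The MT2 share rests on 4 peaks. At equal list length the window held 6, 4, 4, 4 and 5 peaks in the same order of libraries, and the mean difference of 0.085 percentage points turned to -0.047.

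Its strongest region, from 107300356 to 107303172, scored 454 in WT bulk and 377 in WT transfected, and 403, 186 and 448 in MT1, MT2 and MT4, with percentiles from 94.4 in MT2 to 99.5 in MT4. By mean percentile it ranked next to the top among the arm's regions held by all libraries. Others held by all 5 started at 107487620, 107641213 and 107895267. The region from 107641213 to 107644902 spanned 3690 bp and scored 278, 219, 164, 109 and 256 in WT bulk, WT transfected, MT1, MT2 and MT4. MT4 alone held 10 of the 24 regions, with a median peak width of 634 bp. The region at 107300356 had the highest score of the window in every library.

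The window from 102 to 103 Mb also had higher shares in each mutated line than in both wild-type cultures (0.246% in MT1, 0.281% in MT2 and 0.238% in MT4, against 0.193% in WT bulk and 0.157% in WT transfected). It is known to include recently duplicated gene copies of the POLR2J and SPDYE families. Its peaks were the narrowest of the dense windows described here, with a median of 732 bp, and 60% were under 1 kb. MT4 alone held 12 of its 24 regions. At equal list length WT bulk, WT transfected and MT2 had 4 peaks each there, MT1 had 3 and MT4 had 7, so that MT1 fell below the wild-type cultures. Whether reads from near-identical copies contribute to these peaks was not tested.

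Across the arm, 10 of 90 windows (11.1%) had a higher share in every mutated line than in both wild-type cultures, where 6.05% of all windows in the genome did. In 9 windows (10.0%) every mutated line lay below both, where the genome had 9.80%. An upward window needs a peak in all 3 mutated lists, and the median window with a peak held 7 regions on the arm and 4 in the genome. How far this density sets the upward percentage was not tested. Among these 19 windows the largest differences upward were in those starting at 107000001 and at 102, 66, 142 and 127 Mb, and the largest downward at 157, 72, 135, 118 and 74 Mb. At 157 to 158 Mb, a stretch known for PTPRN2, which encodes a phosphatase-like protein of secretory granules, WT bulk had 12 peaks, WT transfected 8, MT1 2, MT2 2 and MT4 10. The mean share there was 0.186% in wild-type and 0.110% in mutated libraries. With lists of equal length WT bulk had 1 peak in that window, MT2 had 2 and the others none, so the separation was lost. At 66 to 67 Mb the counts were 5, 3, 6, 2 and 7, and the mean share was 0.074% in wild-type and 0.145% in mutated libraries. Many of the downward differences rest on single peaks: at 118 Mb each wild-type culture had 1 peak and no mutated line had any. In the windows at 69, 71, 74, 80 and 82 Mb each wild-type culture and MT4 had 1 peak, and MT1 and MT2 had none. There the share of MT4 was lower only because its list is longer. The number of separating windows fell from 19 to 5 at equal list length and to 11 with windows of 2 Mb.

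In the full lists the place of MT4 among the 5 libraries changed along the arm. Between 64 and 90 Mb it had the lowest share of its own peaks of any library (1.06%, others 1.16 to 1.30%). From 90 to 130 Mb its share was 3.29%, between that of MT1 (3.10%) and MT2 (3.86%). From 130 Mb to the end it had 3.37%, against 2.56% in WT bulk, 2.08% in WT transfected, 2.32% in MT1 and 2.24% in MT2. The limits of 90 and 130 Mb were set after the values were seen. At equal list length MT4 was no longer lowest between 64 and 90 Mb, where it had 1.61% against 1.89% in WT bulk and 1.19 to 1.54% in the others. Nor did it stand apart beyond 130 Mb (2.45%, others 2.24 to 2.66%). It was highest from 90 to 130 Mb instead, with 5.19% against 3.65 to 4.07%. The distal excess of MT4 in the full list was therefore made of peaks ranked below its best 1426.

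Regions that MT4 alone held numbered 298, or 37.1% of the arm's regions, against 30.1% of all regions. Their number fell to 151 when only scores at or above the median of all peaks were kept, and to 28 at equal list length. Among single chromosomes the percentage ran from 3.37% on chromosome 4 to 39.5% on chromosome 13, leaving out chromosome Y with 5 regions. In bins of 10 Mb it was 17.9% (95% Wilson interval 8.98 to 32.7%) from 64 to 70 Mb and 16.4% (8.86 to 28.3%) from 70 to 80 Mb. The bins from 80 to 130 Mb ran from 30.3% (110 to 120 Mb) to 41.7% (33.2 to 50.6%, 100 to 110 Mb). The percentage was 46.0% (37.1 to 55.2%) from 130 to 140 Mb, 46.1% (36.1 to 56.4%) from 140 to 150 Mb and 40.4% (32.7 to 48.7%) beyond 150 Mb. The intervals cover counting error only, and neighbouring regions are not independent. The interval of the 70 to 80 Mb bin overlapped neither that of the 100 to 110 Mb bin nor those of the bins beyond 130 Mb. The MT4-only peaks of the arm were narrow and low, with a median width of 885 bp and a median percentile of 33.2 (872 bp and 29.1 elsewhere).

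**Figure D3:**
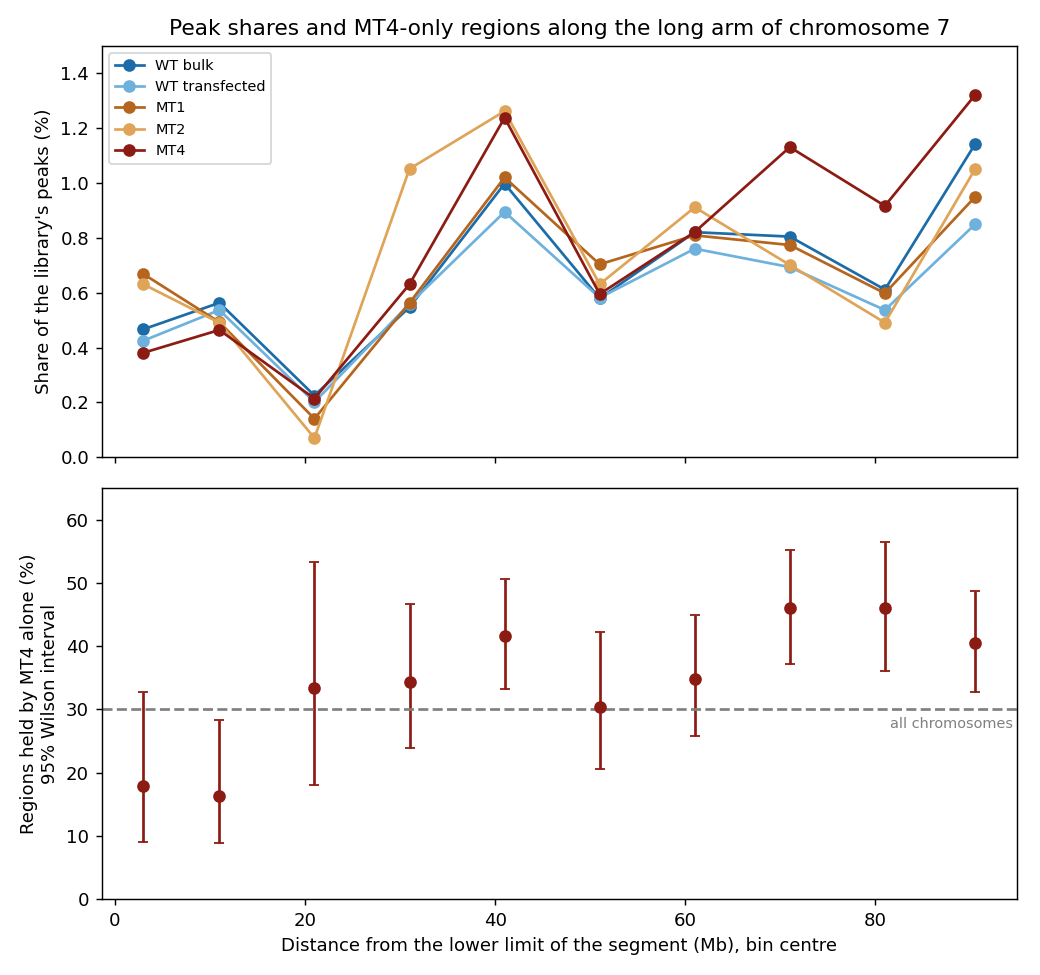
Top: share of each library's peaks per bin of 10 Mb (6 Mb in the first and 9 Mb in the last bin) against the distance of the bin centre from the 64 Mb limit. Bottom: percentage of regions held by MT4 alone with 95% Wilson intervals, and a dashed line at 30.1% for all chromosomes; it is lowest, at 16.4%, in the second bin and highest, at 46.1%, in the ninth.

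The strongest regions of MT4 alone were not faint within its list. The first, from 108209825 to 108211125, scored 234 and stood at percentile 92.5. The others of the top 3 lay from 117853992 to 117855108 (score 230) and from 127031665 to 127033762 (score 208). None of the other libraries had a peak alone above percentile 69.8 on the arm. In WT bulk the best such region, from 133612886 to 133613583, scored 153. WT transfected, MT1 and MT2 had 21, 12 and 3 regions of their own, whose best percentiles were 39.4, 54.9 and 24.1. Of the peaks on the arm, 46.0% of those of MT4 (95% Wilson interval 42.2 to 49.8%) were in no other list, 23.3% of WT bulk (19.5 to 27.6%), 7.78% of WT transfected (5.14 to 11.6%), 6.28% of MT1 (3.63 to 10.7%) and 2.88% of MT2 (0.986 to 8.14%). Over all chromosomes the shares had the same order: 40.3% of the peaks of MT4, 21.8% of WT bulk, 13.1% of WT transfected, 7.74% of MT1 and 4.91% of MT2. The arm was above that share in MT4 and WT bulk and below it in the others.

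The densest window, from 151 to 152 Mb, had the most regions of MT4 alone. MT4 had 24 peaks there and WT bulk 7, WT transfected 5, MT1 3 and MT2 1. The distal part of the window belongs to KMT2C, a histone methyltransferase gene whose exons have known copies near the centromeres of other chromosomes. MT4 alone had peaks starting at 151901049, 151908706, 151917953, 151958975, 151968384, 151975090 and 151987381, all under 700 bp wide, with percentiles between 1.92 and 65.6. Among these lay the sole region of the arm held by all 3 mutated lines and neither wild-type culture, from 151937268 to 151939056. It scored 117 in MT1 (percentile 49.2), 119 in MT2 (63.1) and 141 in MT4 (63.8). One region of 803 is 0.125%, and the genome had 0.071%. No such region was left when only scores at or above the median of all peaks (121.64) were kept. At equal list length the window held 1 peak in each of WT bulk, WT transfected, MT1 and MT2 and none in MT4.

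Regions of both wild-type cultures and no mutated line numbered 14 (1.74%), against 2.74% of all regions. Their mean score percentiles ran from 13.7 to 78.6 with a median of 40.8, below the middle of the lists. Peaks in all regions of 2 libraries on the arm had a median percentile of 36.7. After the region at 64717674 came those from 123332302 to 123333016 (scores 153 in WT bulk and 123 in WT transfected), 87895327 to 87896300 (219 and 104), 118498516 to 118499358 (119 and 147) and 121001549 to 121002447 (128 and 132). A line without a peak is one in which the score did not reach 90, and lower methylation there and lower sensitivity cannot be told apart. The class held 4 regions at equal list length. Without WT bulk, WT transfected or MT4 it grew to 35, 112 and 62, and without MT1 or MT2 it was 16 and 14. Leaving out any library relaxes the condition, and how far list length sets these numbers was not tested.

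All 5 libraries held 71 regions (8.84%), against 7.42% in the genome, and 66 of the 81 regions in 4 libraries were missing from MT2 alone, as were 895 of 1191 in the genome. Without MT2, 137 regions were held by all of the other libraries. The region of highest mean percentile on the arm was that from 106507629 to 106510380, in the stretch known for PIK3CG, a lipid kinase gene of blood cells. It scored 465 in WT bulk and 380 in WT transfected, and 313, 264 and 480 in MT1, MT2 and MT4, with percentiles of 97.5 or more in each list. After that region and the one at 107300356 came the region from 90893989 to 90897167, at the known place of the Wnt receptor gene FZD1. It scored 363, 283, 239, 229 and 401 in the same order.

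The 10 highest regions were picked by mean percentile among those held by all 5 libraries, so high rank in both genotypes follows from the choice. The other regions of these 10 are given here as a description. That from 148767085 to 148770008, in a further cluster of zinc finger genes, scored 335, 336, 230, 205 and 359 in WT bulk, WT transfected, MT1, MT2 and MT4. That from 120699664 to 120701484 scored 404, 279, 235, 190 and 501, the last being the highest score on the arm. That from 128292376 to 128295250 scored 323, 260, 230, 171 and 350. The region from 98245348 to 98247932, at the known place of NPTX2, a neuronal pentraxin gene often methylated in cancer, scored 323, 213, 239, 208 and 252. The 2 that complete the 10, beside the imprinted one below, ran from 70595951 to 70598462 and from 102919687 to 102922070.

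MEST, imprinted and expressed from the paternal copy, has a promoter known to be methylated on the maternal copy. The region from 130129934 to 130133741, at its known place, was held by all 5 libraries with scores of 291 in WT bulk and 264 in WT transfected, and 234, 168 and 313 in MT1, MT2 and MT4. At 3808 bp it was the widest of the 10. The window from 94 to 95 Mb, where the imprinted genes PEG10 and SGCE lie, held 2 regions. They ran from 94137862 to 94139326 (MT1 and MT4) and from 94536682 to 94537535 (WT bulk and MT4). No library had a peak between these 2 regions, and whether either lies at the imprinted genes was not analysed. This window was picked after its values were seen.

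Pooled over libraries, peaks in regions with more libraries were wider and ranked higher. The median peak width rose from 914.5 bp in regions of a single library to 1105, 1269.5, 1384.5 and 1815 bp in regions of 2, 3, 4 and 5 libraries. The median percentile went from 28.6 to 36.7, 50.7, 71.5 and 87.5. The pooled medians mix libraries, and MT4 held 298 of the 432 regions of a single library. Every library had its widest median in regions of all 5, from 1706 bp in MT1 to 2015 bp in MT2, and its highest median percentile there as well. Below that the rise was not steady in each library. From regions of 3 to 4 libraries MT2 went from 1846 to 1657 bp and from percentile 48.8 to 40.1. From regions of 1 to 2 libraries MT1 went from percentile 16.4 to 13.2. A peak must reach the same score limit in every list to be shared, so sharing and rank are tied by construction.

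**Figure D4:**
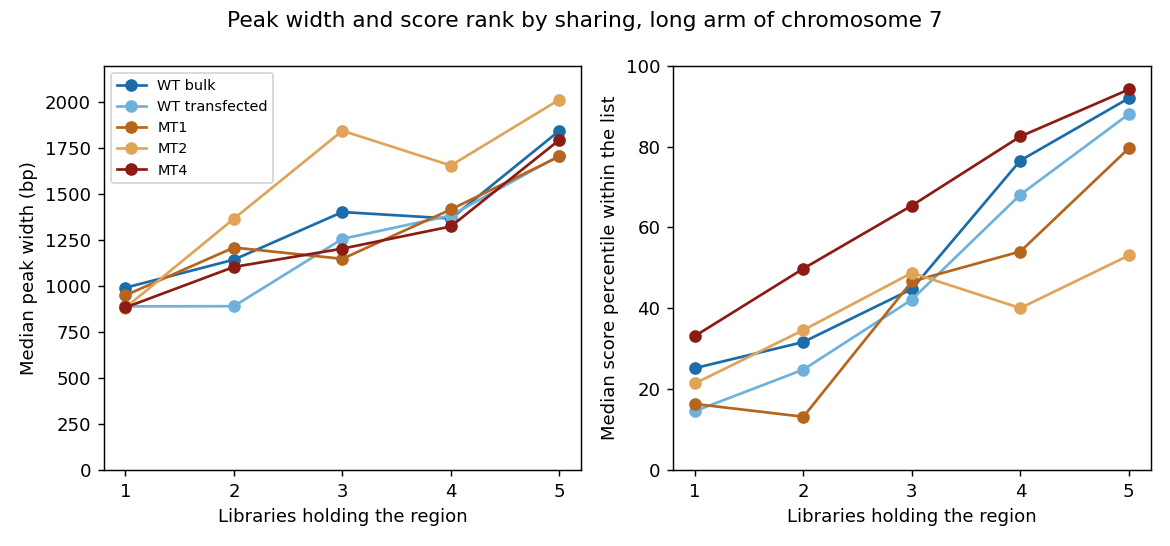
Median peak width in bp (left) and median score percentile within the list (right) of each library's peaks on the arm, against the number of libraries that hold the region. Both are highest in regions of all 5 libraries, and the MT2 percentile there, 53.1, is far below the 94.1 of MT4.

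The same 71 regions allow widths and scores to be set side by side over a common set. The median width was 1846 bp in WT bulk and 1711 bp in WT transfected, and 1706 bp, 2015 bp and 1796 bp in MT1, MT2 and MT4. MT2 had the widest peak in 42 of the 71 regions and the narrowest in 1. WT transfected had the narrowest in 30 and MT1 in 20. The median score was 230 in WT bulk and 196 in WT transfected, and 155, 112 and 250 in MT1, MT2 and MT4, and MT2 had the lowest score in 58 regions and the highest in none. MT2 thus had the widest median over the same regions too. Centres of the 5 peaks of a region lay within 214.5 bp of one another at the median, with quartiles of 136 and 330.5 bp.

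The 5 widest peaks stood between percentiles 5.01 and 79.1 of their lists by score. At 127668554 to 127673971 MT2 had a peak of 5418 bp with a score of 99.3, in a stretch known for the synaptic adhesion gene LRRC4. MT1 had peaks of 5331 bp (149459483 to 149464813, score 92.4) and 5194 bp (150760720 to 150765913, score 96.1). WT bulk and MT4 had peaks of 5215 and 5190 bp from 66366071 and 66366134, with scores of 146 and 174.5. Width and score correlated at a Spearman rho of 0.26 in MT2 to 0.44 in WT transfected, over 104 and 270 peaks of a library that share depth and caller.

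Recovery is the percentage of regions held by at least 2 of the other 4 libraries that the library in question also held. On the arm it was 81.8% in WT bulk (225 of 275; 95% Wilson interval 76.8 to 85.9%), and 62.7% in WT transfected (205 of 327; 57.3 to 67.8%). MT1 had 46.2% (165 of 357; 41.1 to 51.4%), MT2 26.0% (95 of 365; 21.8 to 30.8%) and MT4 90.5% (229 of 253; 86.3 to 93.5%). These intervals and the recovery intervals below cover counting error within a library only, and neighbouring regions are not independent. The mutated lines included both the highest and the lowest value, and the means were 54.3 ± 33.0% (SD, n = 3) and 72.3 ± 13.5% (SD, n = 2; exact permutation p = 0.6). The difference of -18.0 points became -4.13 without MT2, -38.8 without MT4 and -31.0 without WT transfected. It was -5.09 points at equal list length and -29.5 at or above the median score. On other chromosomes the same libraries recovered 80.8%, 64.5%, 43.2%, 22.7% and 83.1%.

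Within a library the arm stood 1.0 percentage points above the other chromosomes in WT bulk, -1.78 in WT transfected (that is, below them), and 3.02, 3.30 and 7.42 in MT1, MT2 and MT4. All 3 mutated lines lay above both wild-type cultures, a difference of 4.97 points (exact permutation p = 0.2, the smallest the design allows). The difference was 2.12 points at equal list length and the groups overlapped (exact permutation p = 0.8), and without WT transfected it was 3.03 points. The sign turned, to -3.82 points, when only peaks at or above the median score of all lists were kept. For MT4 alone the intervals of arm and elsewhere did not overlap (86.3 to 93.5% and 81.8 to 84.3%), a description of regions within 1 library. MT4 had few peaks on chromosome 4. With chromosome 4 left out, MT4 recovered 85.0% elsewhere (83.7 to 86.1%), and the difference between genotypes was 4.29 points.

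On chromosome 7 below 60 Mb WT transfected recovered 25% (26 of 104, interval 17.7 to 34.1%). In the first bin of the long arm, from 64 to 70 Mb, it held 72.0% (18 of 25, interval 52.4 to 85.7%). Its recovery then went to 66.7%, 45.5%, 69.0%, 68.6%, 67.9%, 64.9%, 59.0%, 51.6% and 55.8% in the following bins. The low recovery of the other arm was thus not seen over the long arm as a whole, where the interval of WT transfected (57.3 to 67.8%) spanned its value on other chromosomes. Single bins say less: that from 80 to 90 Mb had 5 of 11, and its interval (21.3 to 72.0%) included 25%.

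**Figure D5:**
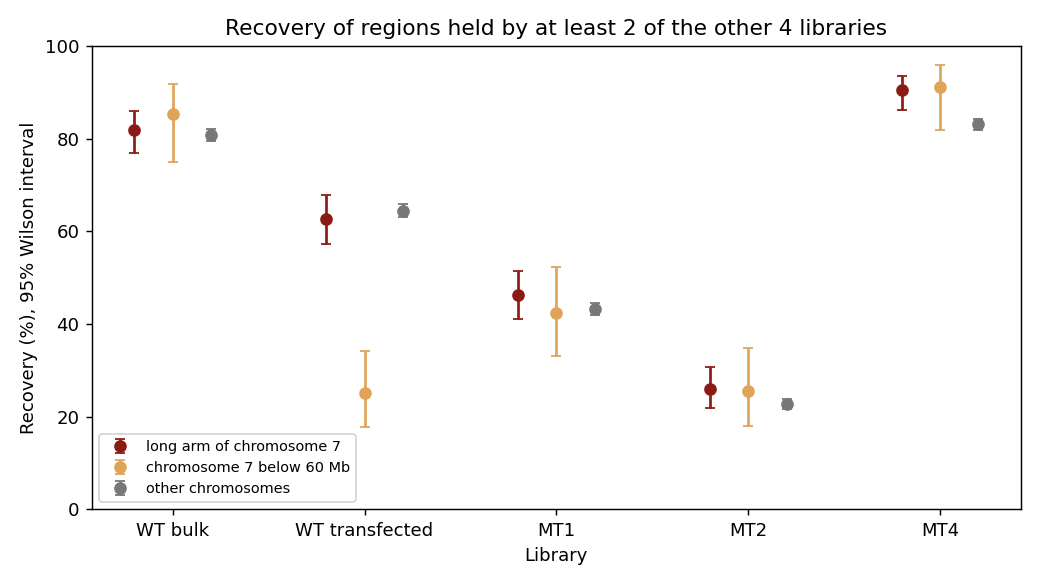
Recovery in % for each library, with 95% Wilson intervals, on the long arm of chromosome 7, on chromosome 7 below 60 Mb and on all other chromosomes. WT transfected falls to 25% below 60 Mb but has 62.7% on the long arm, and MT4 reaches 90.5% on the long arm against 83.1% on other chromosomes.

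The overlap of lists in base pairs, as the Jaccard index (covered in both over covered in either), was highest on the arm for WT transfected with MT1 at 0.456, then for the wild-type pair at 0.432 and for WT bulk with MT4 at 0.407. It was lowest for MT2 with MT4 at 0.190. The index is limited where covered lengths are unequal, as in MT2 (221 kb) and MT4 (866 kb). How far this sets the low value of that pair was not tested. The mean over the 4 pairs of like genotype was 0.315 and that over the 6 mixed pairs 0.355, a difference of -0.040 (exact permutation p = 0.4). The sign held in 7 recomputations and turned in 1, without MT4 (0.052). With every list cut to its best-scoring 1426 peaks the value was -0.023. Its exact permutation p of 0.2 is the smallest this design allows. On the arm, pairs of like genotype were thus not shown to share more than mixed pairs.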

How the data were processed

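MeDIP-seq libraries of 5 K562 cultures were read from both ends (100 to 125 bp), per the labels' protocols. The submitters' processing notes list hg19, edgeR and Bowtie 1.1.1 without saying what each did. The score of each peak was deposited by the authors, 1 list per library, by a caller named MACS in the peak names; the sources used here give neither its version and threshold nor any input control. Scores started at 90.00 to 90.01. The lists give no read counts, so the depth behind a peak is unknown.

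Peaks were merged, counted per window of 1 Mb (by start) and per bin of 10 Mb, and ranked by score within a list (pandas 2.3.3 and scipy 1.17.1 under Python 3.11.15). Coordinates are hg19, counted from 1. Genotypes were compared over libraries with exact two-sided permutation tests of 10 groupings. Regions and windows named were the dense windows, those with the largest separated differences, and the regions of highest mean percentile per sharing class. Members, lists and windows were chosen with earlier results of these data known. Merging was tested on simulated lists. Alternatives were a score limit, equal list length, other overlaps, windows and limits, and leaving out each library.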

Additional observations from a re-analysis of the deposited data

How the results depend on the processing

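No paired analysis was possible because no label ties a mutated line to one of the wild-type cultures. Of 79 recomputed genotype differences, 64 kept their sign, 15 reversed and none had an exact p under 0.2, the smallest the full design allows; the causes were not tested. At equal list length the difference (mutated minus wild-type) was 1.83 peaks, 8.90 kb covered and -0.047 points of share from 107000001 to 108000000, with 4 wild-type-only, 39 five-library and 28 MT4-only regions and 5 separating windows. At or above the median score it was 0.79 percentile points, -3.82 points of relative recovery, 0.025 points of share at 64 to 65 Mb and 0.046 from 107000001 to 108000000, with 0 mutant-only, 24 five-library and 151 MT4-only regions and 11 separating windows. Windows of 2 Mb gave 11 and shifted windows 12 separating windows. Without 1 library the ranges were -197.5 (without MT4) to 74.5 peaks (without MT2), -254 to 68.9 kb, -10.5 to 424 bp of width, 0.48 to 1.20 points of share of the arm, -38.8 to -4.13 points of recovery, 3.03 to 5.58 of relative recovery, -7.32 to 1.83 percentile points (the latter without WT transfected), -0.031 to 0.020 points of share at 64 Mb and 0.0694 to 0.0996 at 107000001, -0.098 to 0.052 in Jaccard index (the latter without MT4), 14 to 112 wild-type-only, 2 to 10 mutant-only, 72 to 137 common regions and 29 to 38 separating windows. The number of peaks was also positive without WT bulk (44.3) and without MT1 (31), as was covered length (65.2 and 17.3 kb). The MT4-only values and those without chromosome 4 were added after the data were seen. Comparisons with genes were not run for want of an hg19 annotation. The score limit and unknown depth limit every absence.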
